A study of Sus scrofa with 9 samples.

Results

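The Toll-like receptor and NF-kB circuit was followed through 10 pig genes: the receptors TLR2 and TLR4, the co-receptor CD14, the adaptor MYD88, the factor subunits NFKB1 and RELA, the inhibitors NFKBIA, TNFAIP3 and TNIP1, and the related receptor CD40. The 10 were chosen by symbol for their roles in the circuit and found through their RefSeq accessions, among 3890 genes with a symbol in the table. They take up 11 of its 4882 annotated positions, since NFKB1 is listed at 2 positions. Where a gene had more than 1 position, the one with the longest span stood for it.

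The libraries are GRO-seq, a run-on assay in which polymerases already on a gene extend their RNA with a tagged nucleotide, so that reads report transcription under way and not stored mRNA. In female farm pigs an embolization coil blocked the distal left anterior descending artery, and the hearts were sampled 24 hours later. Each of 3 pigs gave 1 ischemic, 1 border zone and 1 healthy sample, which makes 3 groups of 3 libraries. All 3 groups carry the same coil, time point and anaesthesia, and healthy means myocardium of an infarcted heart, because no sham-operated pig is among the samples analysed here. The labels state no age for the pigs. Nuclei came from cells freed from minced tissue by collagenase, and how well each cell type was released was not tested.

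TLR4 recognises lipopolysaccharide together with CD14, and TLR2 recognises bacterial lipoproteins. Both are also known to respond to molecules released by dying cells. Their signal passes through MYD88 and a kinase cascade to NF-kB, of which RELA (p65) and the p50 product of NFKB1 form the common dimer. NFKBIA (IκBα) holds that dimer in the cytoplasm, and TNFAIP3 (A20) with its partner TNIP1 (ABIN1) dampens the ubiquitin signals upstream of it. NFKBIA and TNFAIP3 are themselves textbook NF-kB targets, which makes them feedback inhibitors.

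Values are RPKM, reads per kilobase of the annotated span (introns included) per 1e06 reads of the library. Library totals were inferred from the RPKM values themselves, and all read counts below rest on them. They were 883656 to 2134087 reads in ischemic, 2187977 to 7005976 in border zone and 2730083 to 6531658 in healthy libraries. Differences are log2 fold changes of RPKM with 0.1 added, from a limma fit over the 2384 positions that averaged 0.5 RPKM or more, and a change is called at an adjusted p under 0.05. All 11 positions of the 10 genes were in that fit. TLR4, MYD88 and CD40 averaged under 0.5 RPKM in healthy myocardium and entered it through their levels in the other zones, so the counts below describe these genes and no more. Every fold change against healthy below uses the same 3 healthy libraries.

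In ischemic myocardium the receptors, the adaptor and the pair of inducible inhibitors rose, while the factor subunits and TNIP1 did not pass the test. RELA missed it narrowly (adjusted p = 0.0603, limma), and no difference between these sets of genes was tested. Of the 10 genes 7 rose in ischemic against healthy myocardium, where 18.5% of all tested positions were called higher. The count was 8 with pig as a block and 5 to 8 when 1 library was left out. In border zone against healthy myocardium 5 of the 10 rose, where 5.79% of all positions were called higher, and the count was 1 without border zone library 1 or 3, 2 without healthy library 1 and 3 without healthy library 3. In neither comparison did any of the 10 fall (limma, also 0 at an unadjusted p under 0.05 and 0 by limma-voom), where 9.10% and 0.210% of all positions were called lower. The ischemic libraries all lay above all healthy ones for 7 of the 10 genes, as for 28.4% of all positions, and the border zone libraries for 8 of the 10, as for 25.7%. The median log2 fold change of the 10 was 2.32 in ischemic and 2.01 in border zone against healthy myocardium, against medians of 0.21 and 0.22 over all positions. Of the positions called in ischemic against healthy myocardium 67.1% were higher, but 53.2% after median scaling and 49.0% after quantile normalization. In border zone against healthy these shares were 96.5%, 85.6% and 86.2%. Both scalings left 4 of the 10 genes called in border zone, and 7 and 5 in ischemic myocardium.

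**Figure D1:**
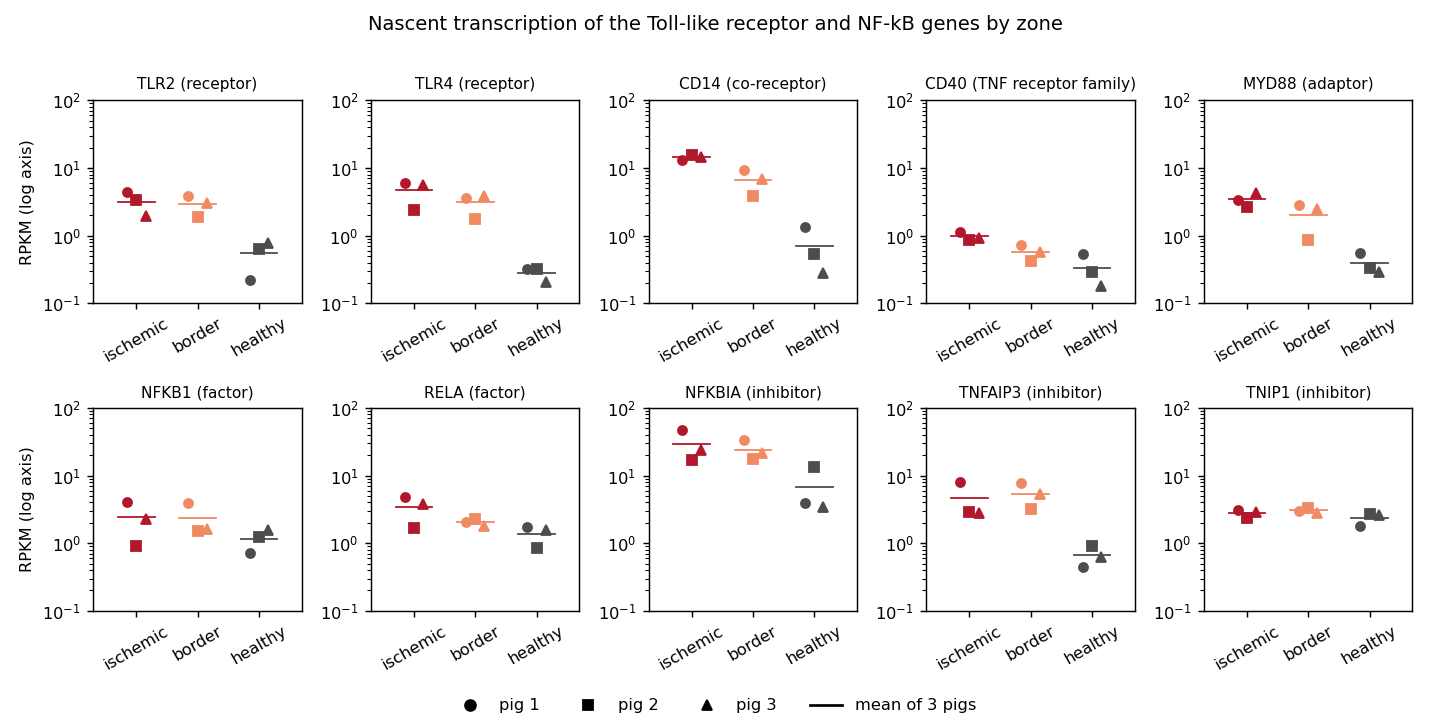
RPKM of the 10 genes (log axis) in ischemic, border zone and healthy myocardium, with 1 symbol per pig and a line at the mean of 3 pigs. TLR4 and CD14 lie at 0.203 to 1.33 RPKM in healthy myocardium and above that range in every library of the other zones, whereas TNIP1 stays between 1.78 and 3.31 RPKM throughout.

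TLR4 (NM_001113039, susScr3 chromosome 1 from 289776058 to 289785087, plus strand) had 6.02, 2.43 and 5.64 RPKM in the ischemic libraries of pigs 1, 2 and 3, 3.59, 1.77 and 3.90 RPKM in their border zone libraries, and 0.325, 0.323 and 0.203 RPKM in their healthy libraries. The groups were apart from healthy in both zones, with pig 2 lowest in each of them. Its log2 fold change was 3.56 ± 0.42 (± SE, adjusted p = 0.00128) in ischemic and 2.99 ± 0.42 (adjusted p = 0.00572) in border zone against healthy myocardium (limma). Both calls held with each of the 9 libraries left out in turn. The healthy values rest on 30 reads over 3 libraries, against 186 ischemic and 304 border zone reads.

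CD14, which hands lipopolysaccharide to the TLR4 complex (NM_001097445, chromosome 2 from 148291971 to 148293621, minus strand), had 13.3, 15.4 and 14.4 RPKM in ischemic, 9.39, 3.81 and 6.92 in border zone and 1.33, 0.531 and 0.278 in healthy libraries of pigs 1 to 3. The 3 zones did not overlap, and the ischemic libraries were close together with a mean of 14.4 ± 1.03 RPKM (SD, n = 3). The difference was 4.37 ± 0.50 on the log2 scale in ischemic against healthy myocardium (adjusted p = 0.00122, limma), which exceeded that of 99.0% of all tested positions. It was 3.19 ± 0.50 in border zone against healthy (adjusted p = 0.0102), a call lost without border zone library 1 (0.0546) or 3 (0.0615). Ischemic libraries were also above border zone in 3 of 3 pigs, at 1.18 ± 0.50, but this did not pass (adjusted p = 0.305, limma). The annotated span is short, and only 97 ischemic, 124 border zone and 12 healthy reads lie behind these values.

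TLR2 (NM_213761, chromosome 8 from 79824551 to 79834592, minus strand) had 4.34, 3.32 and 1.92 RPKM in ischemic, 3.84, 1.88 and 3.0 in border zone and 0.219, 0.640 and 0.778 in healthy libraries. Every ischemic and border zone library exceeded every healthy one, and the ischemic and border zone ranges nearly coincided. TLR2 rose by 2.40 ± 0.47 on the log2 scale in ischemic against healthy myocardium (adjusted p = 0.00852, limma), with each library left out in turn as well. The border zone difference was 2.29 ± 0.47 (adjusted p = 0.0322), but adjusted p = 0.0525 with pig as a block. That call was also lost without border zone library 1 (0.126) or 3 (0.137) and without healthy library 1 (0.0677) or 2 (0.0805).

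MYD88, the adaptor shared by TLR2 and TLR4 (NM_001099923, chromosome 13 from 25181100 to 25183718, plus strand), had 3.4, 2.68 and 4.32 RPKM in ischemic, 2.80, 0.872 and 2.44 in border zone and 0.560, 0.334 and 0.292 in healthy libraries. Its healthy values were the lowest in each pig and its ischemic values the highest. It rose by 2.86 ± 0.43 in ischemic against healthy myocardium (log2, adjusted p = 0.00305, limma), a call kept with each library left out. In border zone the difference was 2.00 ± 0.43 (adjusted p = 0.0374). Leaving out ischemic library 1 (0.0546), border zone library 1 (0.147) or 3 (0.148), or healthy library 1 (0.06), 2 (0.125) or 3 (0.11) ended that call, as did median scaling (0.064) and limma-voom (0.0921). There were 37 ischemic, 56 border zone and 12 healthy reads. In the Sscrofa11.1 RefSeq table the gene ACAA1 overlaps MYD88, and the strand setting of the counting is not given, so reads of the 2 genes cannot be told apart here.

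CD40, a TNF receptor family member that also activates NF-kB (NM_214194, chromosome 17 from 53932001 to 53943003, plus strand), was the weakest of the 10 in ischemic and border zone myocardium. It had 1.15, 0.876 and 0.926 RPKM in ischemic, 0.717, 0.428 and 0.582 in border zone and 0.533, 0.292 and 0.181 in healthy libraries. Ischemic libraries lay above all others, and each pig had the order ischemic, border zone, healthy. The ischemic difference from healthy was 1.39 ± 0.36 (log2, adjusted p = 0.0241, limma). It was lost without ischemic library 1 (0.0813) or 3 (0.0557) or healthy library 2 (0.0683) or 3 (0.0662), and under quantile normalization (0.155). Border zone against healthy did not pass at 0.69 ± 0.36 (adjusted p = 0.313), and this difference turned to -0.16 under quantile normalization. An uncharacterised locus overlaps CD40 in the same RefSeq table.

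Of the factor subunits, RELA (NM_001114281, chromosome 2 from 5699452 to 5707268, minus strand) had 4.74, 1.68 and 3.76 RPKM in ischemic, 2.09, 2.28 and 1.81 in border zone and 1.73, 0.859 and 1.57 in healthy libraries. Ischemic was above healthy within every pig, by 2.73-, 1.96- and 2.40-fold, although the groups overlap through pig 2. The log2 difference of 1.17 ± 0.40 missed the threshold (adjusted p = 0.0603, limma), and passed when a pig term was fitted (adjusted p = 0.0402) and without ischemic library 2 (0.01). Border zone against healthy gave 0.59 ± 0.40, with a 95% interval of -0.33 to 1.5.

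NFKB1 was listed at 2 positions on chromosome 8, 286 kb apart, with 213 and 770 bp of exon, so each covers only a part of the transcript. In the Sscrofa11.1 RefSeq table the whole gene spans 87918 bp, less than this gap. The placement of these positions on susScr3 is therefore in doubt. The longer one (NM_001048232_1, from 127655429 to 127664001) had 4.10, 0.920 and 2.24 RPKM in ischemic, 3.98, 1.5 and 1.6 in border zone and 0.726, 1.23 and 1.57 in healthy libraries. Pig 1 alone separated the zones, with 5.64-fold more in ischemic and 5.47-fold more in border zone than in healthy myocardium. The log2 difference of 0.82 ± 0.57 in ischemic against healthy myocardium did not pass (adjusted p = 0.323, limma), and its 95% interval of -0.49 to 2.13 is wide. The shorter one (from 127365561 to 127368961) averaged 0.893, 1.40 and 1.12 RPKM in ischemic, border zone and healthy myocardium, and its difference from healthy was -0.21 ± 0.44 in ischemic myocardium (adjusted p = 0.756). The positions thus gave opposite signs in that comparison, and neither sign was distinguishable from 0.

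Among the inhibitors, NFKBIA (NM_001005150, chromosome 7 from 69417685 to 69420320, plus strand) was the most transcribed of the 10 genes in every group mean. It had 46.6, 17.0 and 24.1 RPKM in ischemic, 33.0, 17.4 and 21.2 in border zone and 3.89, 13.3 and 3.37 in healthy libraries. Healthy library 2 stood at more than 3 times the level of the other healthy libraries, and ischemic was only 1.28-fold above healthy in that pig, against 12-fold in pig 1 and 7.14-fold in pig 3. NFKBIA rose by 2.23 ± 0.58 in ischemic against healthy myocardium (log2, adjusted p = 0.0249, limma), a call lost without ischemic library 1 (0.0767) or 3 (0.0546) or healthy library 1 (0.071) or 3 (0.0789). In border zone all 3 libraries exceeded all healthy ones, but 2.02 ± 0.58 did not pass (adjusted p = 0.0914) unless healthy library 2 was left out (0.0444) or limma-voom was used (0.00768). An uncharacterised locus overlaps NFKBIA in the RefSeq table.

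TNFAIP3, the ubiquitin-editing inhibitor A20 (NM_001267890, chromosome 1 from 29827839 to 29837797, minus strand), had 8.09, 2.90 and 2.84 RPKM in ischemic, 7.69, 3.15 and 5.37 in border zone and 0.441, 0.909 and 0.630 in healthy libraries. Both injured zones lay wholly above healthy myocardium, and the border zone mean of 5.41 RPKM exceeded the ischemic mean of 4.61 RPKM within their spread. TNFAIP3 rose by 2.50 ± 0.48 in ischemic (adjusted p = 0.00852) and by 2.81 ± 0.48 in border zone against healthy myocardium (adjusted p = 0.0168, limma). The ischemic call held with each library left out. The border zone call was lost without border zone library 1 (0.0765) or 3 (0.0763) or healthy library 1 (0.0584) or 3 (0.0563).

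TNIP1, which recruits A20 to ubiquitin chains (NM_001145987, chromosome 16 from 78292142 to 78323821, minus strand), varied least among the 10. It had 3.12, 2.35 and 2.89 RPKM in ischemic, 3.02, 3.31 and 2.84 in border zone and 1.78, 2.71 and 2.6 in healthy libraries. It is also the best-covered of them, with 377 ischemic, 1272 border zone and 986 healthy reads. The log2 difference in ischemic against healthy myocardium was 0.24 ± 0.22 (adjusted p = 0.457, limma), with a 95% interval of -0.27 to 0.76, and it turned to -0.04 under quantile normalization. In border zone it was 0.38 ± 0.22 (adjusted p = 0.383).

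**Figure D2:**
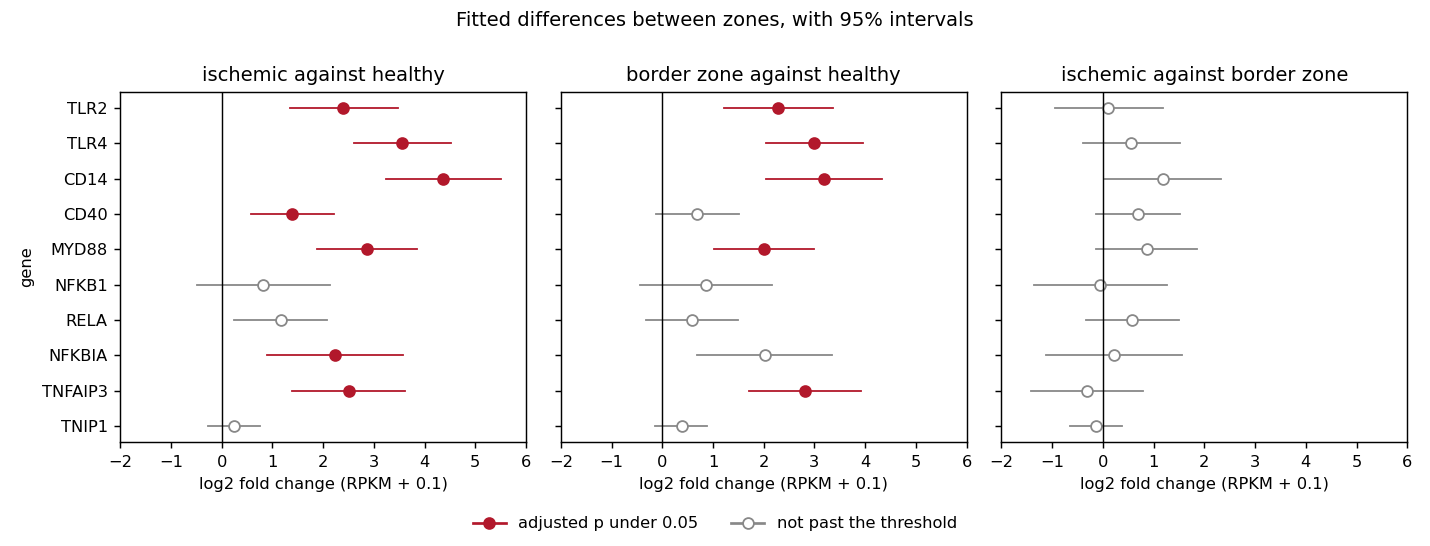
Log2 fold changes of RPKM with 0.1 added, with 95% intervals (limma, n = 3 libraries per zone), for the 3 comparisons. Filled symbols passed an adjusted p under 0.05: there are 7 in ischemic against healthy, 5 in border zone against healthy and 0 in ischemic against border zone.

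The ischemic and border zones were hard to tell apart in these genes. In ischemic against border zone 0 of the 10 passed (limma), with 1 at an unadjusted p under 0.05, namely CD14, and 0 by limma-voom, where 1.13% of all positions were called, 0.168% as higher and 0.965% as lower. CD14 and CD40 were the genes whose ischemic libraries all lay above all border zone libraries, as 8.56% of all positions did. The differences ran from 1.18 for CD14 to -0.31 for TNFAIP3. TLR4 had 0.56 ± 0.42 and MYD88 0.86 ± 0.43, both higher in ischemic than border zone myocardium in 3 of 3 pigs. The inhibitors stood at 0.21 ± 0.58 for NFKBIA, -0.31 ± 0.48 for TNFAIP3 and -0.14 ± 0.22 for TNIP1. The 95% intervals are wide, from -1.42 to 0.80 for TNFAIP3, and reached past 1 or -1 on the log2 scale for every one of the 10 genes but TNIP1.

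The differences varied between pigs. Within pigs 1, 2 and 3, ischemic over healthy RPKM was 19.8, 5.19 and 2.46 for TLR2 and 18.3, 3.20 and 4.51 for TNFAIP3, whereas it was 10.0, 29.0 and 51.7 for CD14 and 6.08, 8.01 and 14.8 for MYD88. The first pair had its highest ratio in pig 1 and the second pair in pig 3. Pig 2 had the lowest border zone value for 8 of the 10 genes, as it did for 35.4% of all tested positions. Its ischemic library was lowest for 7 of the 10, against 40.7% of positions, and the ischemic library of pig 1 was highest for 8 of the 10, against 45.4%.

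**Figure D3:**
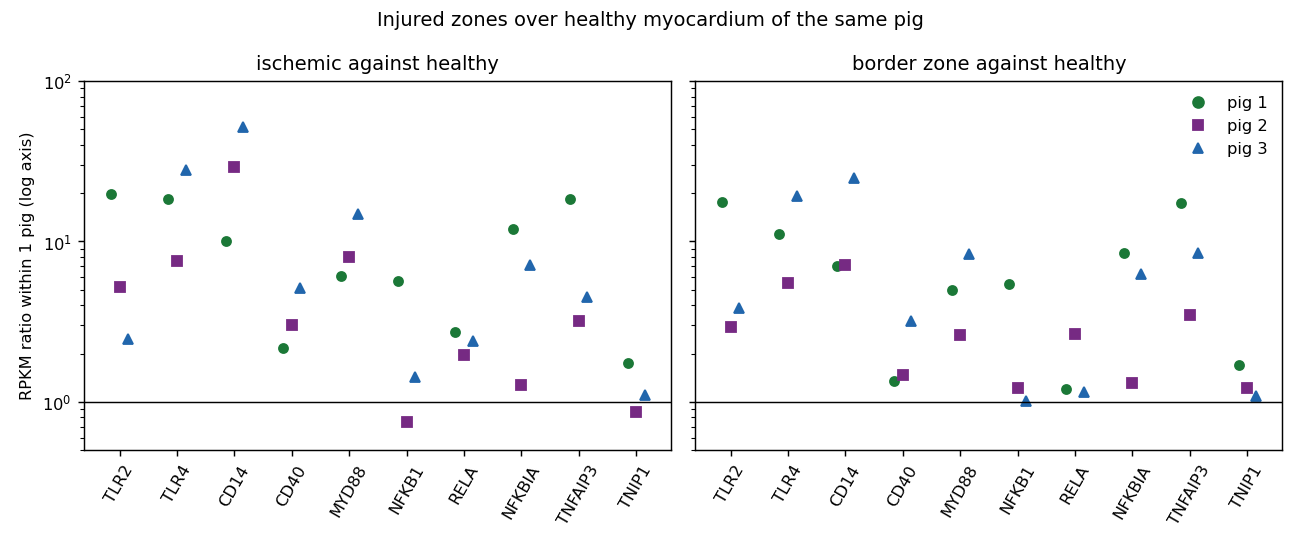
RPKM in ischemic (left) and border zone (right) over healthy myocardium of the same pig, on a log axis, with 1 symbol per pig and a line at equality. CD14 and TLR4 lie at 5.48 or above in all 6 ratios each, NFKBIA of pig 2 lies at 1.28 and 1.31, and TNIP1 stays within 0.868 and 1.75.

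The order of the genes by level changed between zones. In ischemic myocardium NFKBIA (29.2 ± 15.5 RPKM, mean ± SD, n = 3) and CD14 (14.4 ± 1.03) led. TLR4 (4.70 ± 1.97), TNFAIP3 (4.61 ± 3.01), MYD88 (3.47 ± 0.824), RELA (3.39 ± 1.56), TLR2 (3.19 ± 1.22), TNIP1 (2.79 ± 0.395) and NFKB1 (2.42 ± 1.60) followed, neighbours in this row being within 1 SD of each other, and CD40 was last at 0.984 ± 0.146. Border zone had the same leaders at 23.9 ± 8.16 and 6.71 ± 2.80 RPKM, and TNFAIP3 came next at 5.41 ± 2.27. In healthy myocardium NFKBIA (6.85 ± 5.58) was followed by TNIP1 (2.36 ± 0.507), RELA (1.39 ± 0.465) and NFKB1 (1.17 ± 0.425), and CD14 came next at 0.714 ± 0.550 RPKM. TLR4 was the lowest of the 10 there, at 0.284 ± 0.0695 RPKM. Its level exceeded 5.91% of the tested positions in healthy, but 83.9% in ischemic and 77.8% in border zone myocardium. TLR4 passed the 0.5 RPKM filter through the other zones, so this contrast is in part set by the filter.

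Ratios of levels within a library, both per length, showed the same shift. TNFAIP3 over its partner TNIP1 was 2.59, 1.24 and 0.982 in ischemic, 2.55, 0.952 and 1.89 in border zone and 0.248, 0.335 and 0.242 in healthy libraries. The inhibitor was near or above its partner in the injured zones and well below it in healthy libraries, without overlap. NFKBIA over RELA was 9.84, 10.1 and 6.39 in ischemic, 15.8, 7.62 and 11.7 in border zone and 2.24, 15.5 and 2.15 in healthy libraries, where the healthy library of pig 2 reached the injured range. These ratios were not tested.

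Further genes of the pathway were taken from a list of receptors, adaptors, kinases, factors and inhibitors that holds none of the 10. Of its 60 genes 22 were in the table and 12 reached the level needed for testing. Only 2 of its 18 inhibitors, 9 of its 26 adaptors and kinases and 0 of its 3 factors were in the table. In ischemic against healthy myocardium 4 of the 12 rose and 0 fell (limma, with 1 lower at an unadjusted p under 0.05 and 0 by limma-voom), against 18.5% of all positions called higher. The median log2 fold change of the 12 was 0.27. All 4 averaged under 0.5 RPKM in healthy myocardium and were tested only because of their level in the injured zones, so nothing is read from this count. LY96 (MD-2), which binds lipopolysaccharide on TLR4, averaged 1.16 RPKM in ischemic and 0.237 in healthy myocardium, a log2 difference of 1.90 ± 0.32 (adjusted p = 0.00452) that held with each library left out. TLR6, a partner of TLR2, had 2.32 ± 0.69 (adjusted p = 0.0393) on 19 ischemic and 11 healthy reads, and was lost without any of 6 libraries. These were ischemic libraries 1 (0.114) and 3 (0.078), border zone libraries 1 to 3 (0.0568, 0.0576 and 0.0607) and healthy library 3 (0.0547), and median scaling ended it too (0.0507). The kinase IRAK4, which docks on MYD88, had 1.02 ± 0.27 (adjusted p = 0.027), and was lost without ischemic library 1 (0.0765) or 2 (0.062) or healthy library 2 (0.0904) or 3 (0.0701). TNFAIP8L2 (TIPE2), known in mice as a brake on Toll-like receptor signalling, had 3.24 ± 0.75 (adjusted p = 0.0165), and 0.0537 without ischemic library 1.

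Several genes of this list that carry the signal onward did not pass. IKBKB, the catalytic IκB kinase, had 0.48 ± 0.24 (adjusted p = 0.168, limma), the ubiquitin ligase TRAF6 had -0.57 ± 0.34 (0.255) and MAP3K7, the kinase TAK1, had -0.39 ± 0.24 (0.259) in ischemic against healthy myocardium. TLR1, another partner of TLR2, had 1.72 ± 0.59 (0.0617), and passed without healthy library 1 (0.0483). SOCS1, a feedback inhibitor of cytokine signalling, had 1 read over the ischemic, 25 over the border zone and 7 over the healthy libraries. Its difference missed the threshold in ischemic against healthy myocardium (limma, adjusted p = 0.0648, 0.0232 with pig as a block, 0.0376 with median scaling and 0.822 by limma-voom). The ischemic against border zone difference missed it too (0.0637, 0.0374 with pig as a block, 0.0607 with median scaling and 0.259 by limma-voom). Without ischemic library 1, which holds that read, both comparisons passed as lower (0.00631 and 0.00565). Ischemic libraries 2 and 3, which then remained, were both at 0 RPKM and so had no spread, and nothing is read from these calls. In border zone against healthy 1 of the 12 genes rose, LY96 at 1.40 ± 0.32 (adjusted p = 0.0414), where 5.79% of all positions were called higher, against 2 with pig as a block, and LY96 was then at 0.0505. Its call was kept only without ischemic library 2 or border zone library 2, and the other 7 omissions gave adjusted p of 0.0549 to 0.185.

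Known NF-kB targets were taken from a further list of 36, of which 28 genes were in the table and 18 were tested. In ischemic against healthy myocardium 12 of the 18 rose, against 18.5% of all positions, and in border zone against healthy 7 rose, against 5.79%, or 11 with pig as a block. The border zone count was 4 without border zone library 1 or 3 or healthy library 2. The median log2 fold changes were 2.08 and 2.17. Of the called targets, 6 of the 12 and 5 of the 7 averaged under 0.5 RPKM in healthy myocardium and were tested through the injured zones, so these counts describe the genes and no more. IL1B (interleukin 1 beta) averaged 18.7 RPKM in ischemic, 16.0 in border zone and 0.209 in healthy myocardium, and IL1A averaged 11.5, 9.23 and 0.171 RPKM in the same order of zones. CXCL2, a neutrophil chemokine, averaged 24.3, 17.5 and 3.12 RPKM, and the adhesion molecule ICAM1 averaged 3.21, 2.15 and 0.334 RPKM. All 4 genes passed in both comparisons with healthy, the 2 interleukins and CXCL2 with each library left out as well. ICAM1 kept its border zone call (adjusted p = 0.0375, limma) only without ischemic library 1 or 2 or border zone library 2. TNF, a classical target, had 1.64 ± 0.65 in ischemic against healthy myocardium and did not pass (adjusted p = 0.0939), but did without ischemic library 3 (0.0111) and by limma-voom (0.0408). PTGS2, the inducible prostaglandin synthase, was the target called in ischemic against border zone, at 1.5 ± 0.26 (adjusted p = 0.0472), with adjusted p of 0.0545 to 0.17 without any of 8 libraries.

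Most tested macrophage, monocyte and neutrophil markers rose in ischemic against healthy myocardium along with these genes, whereas most tested lymphocyte markers did not. Beside each marker count below stand the shares of all tested positions. These were 18.5% higher and 9.10% lower in ischemic, and 5.79% higher and 0.210% lower in border zone against healthy. CD14, TLR2 and TLR4 are found on monocytes, macrophages and neutrophils. In bulk tissue more cells of a type and more transcription per cell cannot be told apart. Of 20 listed macrophage and monocyte markers the 13 in the table summed to 19.2 to 33.5 RPKM in ischemic, 14.9 to 25.3 in border zone and 4.81 to 8.27 in healthy libraries. Of the 9 tested, 8 rose in ischemic and 4 in border zone against healthy myocardium, while CD163 and FCGR3A held no read in any library. Among those that rose, CCR2 and LYZ averaged 0.217 and 0.192 RPKM in healthy myocardium and were tested through the injured zones. The counts thus describe these markers and no more. Of 13 listed neutrophil markers the 5 in the table summed to 14.1 to 30.3 RPKM in ischemic, 5.28 to 10.9 in border zone and 0.0995 to 0.323 in healthy libraries. S100A8, S100A9 and S100A12 were all at 0 in healthy libraries. Of the 4 neutrophil markers tested, 3 rose in ischemic and 2 in border zone against healthy myocardium (limma). All 4 averaged under 0.5 RPKM in healthy myocardium, TREM1 at 0.168, and were tested only through the injured zones. Nothing is therefore read from these counts. S100A9 did not pass in ischemic (adjusted p = 0.152) or border zone (0.503), nor S100A8 in border zone (0.163, limma). The part of these cell types in the changes above was not tested. Heart muscle markers went the other way as a sum. Of 15 listed the 11 in the table summed to 101 to 280 RPKM in ischemic, 214 to 344 in border zone and 400 to 672 in healthy libraries. None of the 11 was at 0 in any zone, and 7 of them were called lower in ischemic than healthy myocardium (limma). Of these, TNNC1 and MYL2 passed narrowly (adjusted p = 0.0499 and 0.05 after rounding, limma). In border zone against healthy 0 of the 11 were called lower, and the log2 difference of DES was 0.1. The 15 lymphocyte markers summed to 6.26 to 10.0 RPKM in ischemic, 4.87 to 12 in border zone and 2.14 to 4.74 in healthy libraries. CD79B was at 0 in healthy libraries. Of the 4 tested 1, CCR7, was higher in both injured zones. It averaged 0.013 RPKM in healthy myocardium and was tested through the injured zones. CD2, CD8A and NKG7 did not pass in ischemic against healthy (adjusted p = 0.246, 0.21 and 0.362, limma). Of 10 listed endothelial markers the 5 in the table summed to 16.1 to 35.0 RPKM in ischemic, 8.90 to 19.0 in border zone and 7.65 to 9.58 in healthy libraries. Of 10 listed fibroblast markers the 5 in the table summed to 12.2 to 16.7, 10.4 to 12.7 and 8.46 to 11.6 RPKM in the same order of zones. No endothelial or fibroblast marker was at 0 in any zone. Against healthy myocardium 4 of the 5 endothelial markers rose in ischemic and 0 in border zone (limma). Of the 5 fibroblast markers 2 rose in ischemic, COL1A2 and COL3A1, and 0 in border zone. DCN and LUM had log2 differences of -0.57 and -0.63 in ischemic against healthy myocardium and did not pass (adjusted p = 0.241 and 0.338, limma).

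**Figure D4:**
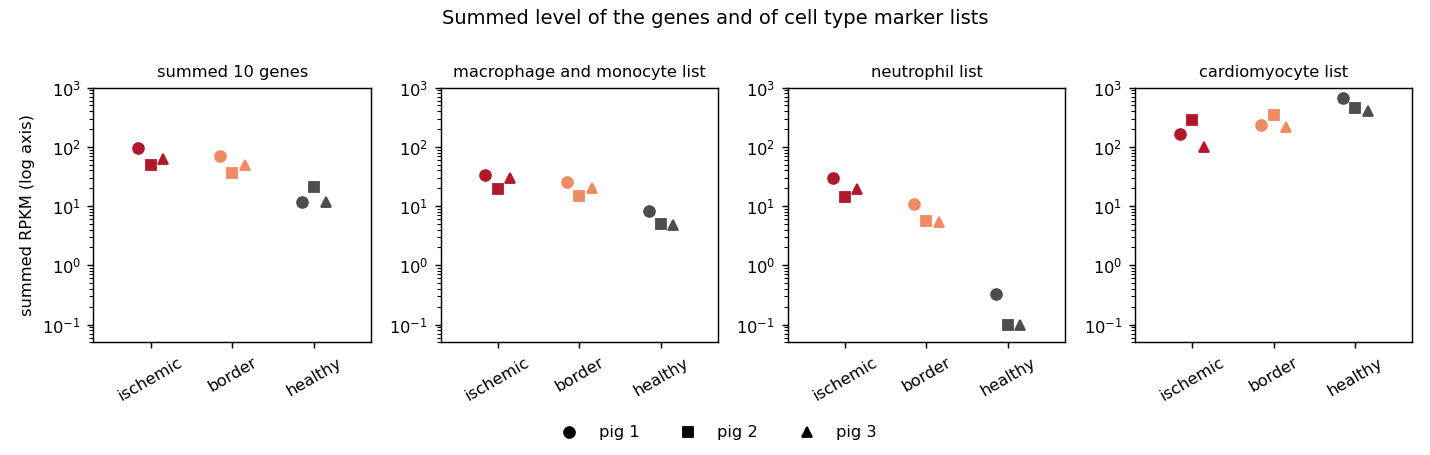
Summed RPKM (log axis) of the 10 genes and of the macrophage and monocyte, neutrophil and cardiomyocyte marker lists, in ischemic, border zone and healthy libraries, 1 symbol per pig. The 10 genes sum to 49.5 to 94.9 RPKM in ischemic, 36.4 to 70.1 in border zone and 11.5 to 21.1 in healthy libraries, and the neutrophil list is near 0 in healthy myocardium.

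Set over the summed macrophage and monocyte markers of the same library, the genes parted. TLR4 stood at 0.18, 0.126 and 0.192 of that sum in ischemic, 0.142, 0.119 and 0.193 in border zone and 0.0392, 0.0642 and 0.0423 in healthy libraries. CD14 stood at 0.399, 0.801 and 0.489 in ischemic, 0.371, 0.255 and 0.343 in border zone and 0.161, 0.105 and 0.0579 in healthy libraries. Both were above their healthy values without overlap in this ratio, but it depends on the markers taken. FCER1G averaged 4.34, 4.66 and 3.24 RPKM in ischemic, border zone and healthy myocardium and did not pass in any comparison. With FCER1G left out of the sum, TLR4 overlapped between ischemic and healthy libraries, at 0.241, 0.153 and 0.2 against 0.0914, 0.16 and 0.0718, while CD14 did not. Over CCR2 alone both overlapped: TLR4 was at 0.913, 1.34 and 0.785 in ischemic, 1.46, 1.03 and 1.13 in border zone and 1.72, 1.61 and 0.775 in healthy libraries. The level of TLR4 and CD14 per leukocyte is therefore not given by these data. TLR2 was at 0.13, 0.172 and 0.0651 in ischemic, 0.152, 0.126 and 0.149 in border zone and 0.0265, 0.127 and 0.162 in healthy libraries, and NFKBIA overlapped between all zones too. RELA was lower relative to the markers in both injured zones, with at most 0.141 in ischemic and 0.153 in border zone against at least 0.171 in healthy libraries. TNIP1 was lower in ischemic libraries (at most 0.122 against at least 0.215) and CD40 in border zone (at most 0.0288 against at least 0.0376). TNFAIP3 was higher in border zone, with at least 0.211 against at most 0.18, but overlapped with FCER1G left out. When the neutrophil markers were added to the full sum, TLR4 and CD14 did not overlap with healthy, while MYD88, which had been apart from healthy in ischemic libraries, did. These ratios were not tested.

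The genes whose profile over the 9 libraries was most like that of each of 4 members were found by the root mean square difference of log2 values centred on their mean, among 1977 other tested genes. All genes were compared over the same 9 libraries, which differ in depth and zone, so closeness in this measure is a description. For CD14 these were CDA, a cytidine deaminase (difference 0.44 on the log2 scale), and the monocyte chemokine CCL2 (0.51), where the median gene differed by 1.90. For TLR4 they were FOS, an AP-1 subunit (0.29), and the chemokine receptor CCR2 (0.33), with a median of 1.60. FOS had 75.0, 39.9 and 71.2 RPKM in ischemic, 74.1, 32.3 and 49.9 in border zone and 7.29, 7.58 and 6.53 in healthy libraries, a far higher level with the same dip in pig 2 in both injured zones. MYD88 was closest to CST3 (cystatin C, 0.33) and the hexokinase HK2 (0.34), with a median of 1.29. TNFAIP3 was closest to NLRP3, the inflammasome sensor (0.37), and the costimulatory receptor CD86 (0.38), with a median of 1.35.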

How the data were processed

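The authors aligned GRO-seq reads with Bowtie to susScr3, per the submitters' processing notes, and deposited RPKM for 4882 annotated positions in 9 libraries. No source used here gives the counting program, strand setting or treatment of duplicates. Each library total was inferred from the smallest products of RPKM and span, as the total that makes them whole reads. RPKM times span times this total gave whole reads within 0.01 for 100% of nonzero values. The totals were set from these same values, and a whole multiple of a total would give whole reads as well. This share is therefore no independent check of the totals. Reads per position of 1 to 30 were multiples of 3 in 32.8% to 53.2% of cases by library, so reads may not be independent molecules. Gene symbols came from the RefSeq table of Sscrofa11.1 by accession, for 4793 positions, and coordinates are those of the deposited table. The labels give each pig's number, which pairs the 3 zones of a pig. Deviations from group means correlated at -0.04 to 0.18 within a pig and at -0.16 to 0.08 between libraries of different pigs.

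Log2(RPKM + 0.1) was fitted with limma 3.58.1 in R 4.3.3 (zones as terms, eBayes with trend and robust, 2-sided, Benjamini-Hochberg over the 2384 positions averaging 0.5 RPKM or more). The fit was also run on simulated counts, with changes placed only at positions averaging 2 RPKM or more. No pig effect was simulated, so the run does not cover every feature of the data, and nothing is read from it. Alternatives were another pseudocount, other filters, a pig block, 2 groups alone, 2 scalings, limma-voom on recovered reads, the position with the highest mean, each library left out and, chosen after the data were seen, reads thinned to 883656 per library. The members and lists were chosen with earlier results of these data known. All 10 members are named; of the other lists, up to 8 genes past the threshold in ischemic against healthy, by adjusted p, and any that fell could be named, and the genes added to these were chosen after their values were seen. 1 lymphocyte marker is not reported here. The marker ratios without FCER1G and over CCR2 were chosen after the data were seen. Profile likeness was given for the 4 members with the widest range of group means. Tables and plots used Python 3.11.15, numpy 2.4.6, pandas 2.3.3 and matplotlib 3.10.9.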

Additional observations from a re-analysis of the deposited data

How the results depend on the processing

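Over all alternatives 5 to 8 of the 10 genes were called in ischemic against healthy myocardium and none in ischemic against border zone. The border zone against healthy count of 5 was less stable: 2 with a pseudocount of 1 RPKM, 3 with no filter, 2 with reads thinned, and 1 to 5 with a library left out. With pig as a replicate block TLR2 lost its border zone call (adjusted p = 0.0525, limma) and RELA gained an ischemic one (0.0402), and no other call among the 10 changed. Fitting only 2 groups ended the ischemic calls of CD40 (0.0517) and NFKBIA (0.0556) and the border zone call of MYD88 (0.0568), and quantile normalization ended those of CD40 (0.155), NFKBIA (0.0827) and MYD88 (0.0914). Thinning ended the ischemic call of CD40 (0.0908) and the border zone calls of TLR2 (0.0594), CD14 (0.149) and MYD88 (0.179), and a pseudocount of 1 RPKM those of TLR2 (0.0552), MYD88 (0.0816) and TNFAIP3 (0.0513) in border zone. RELA also passed in ischemic myocardium by limma-voom (0.0288) and at the 2 RPKM filter (0.0489).

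For further pathway genes, the ischemic against healthy count of 4 was 2 with only 2 groups fitted, 2 thinned, 5 with the block and 2 to 5 by omission, and median scaling kept it at 4 by losing TLR6 (0.0507) and adding SOCS1 as lower (0.0376). The border zone count of 1 was 0 with a pseudocount of 1 RPKM, no filter, only 2 groups, median scaling, quantile normalization or thinning, 2 with the block, 3 with limma-voom and 0 to 2 by omission. Their ischemic against border zone count of 0 was 1 with the block and 0 to 1 by omission. At a filter of 2 RPKM no pathway gene was left to test. For targets, the border zone count of 7 was 4 with a pseudocount of 1 RPKM, 11 with the block, 11 with limma-voom and 4 to 8 by omission. The ischemic against border zone count of 1 was 0 with no filter, the 2 RPKM filter, only 2 groups, either scaling or thinning, and 0 to 1 by omission.

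Some small log2 differences changed sign. Under quantile normalization CD40 in border zone against healthy was -0.16, TNIP1 in ischemic against healthy -0.04 and NFKBIA in ischemic against border zone -0.20. By limma-voom NFKB1 in ischemic against border zone was 0.20. With a library left out, ischemic against border zone ranged from -0.16 to 0.43 for TLR2, -0.53 to 0.49 for NFKB1 and -0.19 to 0.54 for NFKBIA. The cause of these changes was not tested. Over the whole table, ischemic against healthy gave 659 calls and 346 with the 2 RPKM filter. Border zone against healthy gave 143, but 48 with a pseudocount of 1 RPKM, 95 with no filter, 76 with the 2 RPKM filter, 90 with median scaling, 80 with quantile normalization, 80 thinned and 296 by limma-voom. Ischemic against border zone gave 27, but 10, 3, 21, 8, 3, 5 and 92 under the same settings and 1 with only 2 groups. Leaving out a library gave 357 to 697, 35 to 174 and 0 to 39 calls in these comparisons, so the shares of all positions set beside the counts move as well. Few healthy reads for CD14, MYD88 and TLR4, and the shallower ischemic libraries, limit the precision.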
